A study of Mus musculus with 5 samples.

Results

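Checkpoint and co-stimulatory receptors were examined on the lymphocytes of mouse small cell lung cancer (SCLC), a neuroendocrine lung carcinoma, by single-cell RNA sequencing (scRNA-seq). The set was 10 genes of the 32589 in the matrices. Pdcd1, Ctla4, Lag3, Tigit, Havcr2 and Btla encode inhibitory receptors, and Icos, Tnfrsf4, Tnfrsf9 and Tnfrsf18 encode co-stimulatory ones. They were chosen by name, and earlier results of these data were known at the time. The genes were read in cells with at least 1 UMI (unique molecular identifier, a count of 1 captured RNA molecule) of Cd3e, Cd3d or Cd3g, which encode the invariant chains of the T cell receptor complex. These cells were split by the detection of Rag2 or Dntt, which act in receptor gene rearrangement in thymocytes, and by the detection of Cd4 or Cd8a alone. Natural killer (NK) cells had a UMI of Ncr1, Klrb1c or Klre1 and none of the Cd3 genes.

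All tumors arose in mice that carried floxed alleles of both Rb1 (Rb1 fl/fl) and Trp53 (Trp53 fl/fl), on a C57BL/6 background, after inhaled adenovirus carrying Cre recombinase had deleted these tumor suppressor genes and tumors had grown for about 6 months. The 5 groups, with 1 library each, were vehicle (PBS), anti-PD-1 (antibody clone RMP1-14), ERBB2i (the oral ERBB2 inhibitor mubritinib), the combination of both agents, and the combination in a sample whose label adds that it was in response. Each agent was dosed at 10 mg/kg, once every 3 days. The labels do not say how many animals entered a library, and they give epithelial as the cell type of every sample, so lymphocytes were told by their own markers.

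Checkpoint receptors dampen signals from the T cell receptor and rise on T cells that have met antigen. PD-1, encoded by Pdcd1, binds PD-L1, and CTLA-4 competes with CD28 for ligands on antigen-presenting cells. The receptors of the tumor necrosis factor family, OX40 (Tnfrsf4), 4-1BB (Tnfrsf9) and GITR (Tnfrsf18), and the CD28 relative ICOS instead support activated and regulatory T cells. The antibody acts on PD-1 protein at the cell surface, whereas the values here are messenger RNA.

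The 4 promoter windows shown belong to genes that the results turn on, Pdcd1 as the target of the antibody, Ctla4 and Havcr2 among the members that differed most between treatments, and Tnfrsf18 as a member with NK cell and T cell levels that were close. Each is the 250 bases before the annotated gene start, from RefSeq on GRCm38.p6, which is mm10, the build named in the submitters' notes. They lie at chr1:94052554-94052803 (minus strand, Pdcd1), chr1:60908775-60909024 (plus, Ctla4), chr11:46454681-46454930 (plus, Havcr2) and chr4:156026072-156026321 (plus, Tnfrsf18). Capitals mark matches, on either strand, to 3 short motifs of factors of T cell activation, the NFAT core GGAAA, the AP-1 site TGANTCA and the Runx core TGTGGT. The NFAT core occurred in 55.6% of 32851 windows of the same length, the AP-1 site in 6.75% and the Runx core in 14.0%. No matches overlap in the windows shown.
Pdcd1: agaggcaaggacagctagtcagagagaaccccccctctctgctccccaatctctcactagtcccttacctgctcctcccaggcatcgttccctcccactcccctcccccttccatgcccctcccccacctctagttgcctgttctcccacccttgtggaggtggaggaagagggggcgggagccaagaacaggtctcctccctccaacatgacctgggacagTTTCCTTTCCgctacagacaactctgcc
Ctla4: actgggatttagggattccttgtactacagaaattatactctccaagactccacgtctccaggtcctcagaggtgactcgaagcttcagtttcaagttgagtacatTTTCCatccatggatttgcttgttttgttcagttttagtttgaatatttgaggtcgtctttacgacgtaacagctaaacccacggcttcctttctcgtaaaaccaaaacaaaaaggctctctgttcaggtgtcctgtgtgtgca
Havcr2: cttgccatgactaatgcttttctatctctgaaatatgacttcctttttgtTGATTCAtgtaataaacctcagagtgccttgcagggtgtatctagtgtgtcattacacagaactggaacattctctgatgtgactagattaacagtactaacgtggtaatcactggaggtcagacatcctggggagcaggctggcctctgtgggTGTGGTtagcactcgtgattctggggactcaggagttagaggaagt
Tnfrsf18: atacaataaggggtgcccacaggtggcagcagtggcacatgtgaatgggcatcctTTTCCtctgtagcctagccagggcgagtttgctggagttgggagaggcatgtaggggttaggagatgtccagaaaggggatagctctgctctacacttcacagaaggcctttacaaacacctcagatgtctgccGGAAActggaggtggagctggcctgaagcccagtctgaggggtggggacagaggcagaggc
The NFAT core matched at 2 places in the Pdcd1 window, both on the opposite strand, at 1 in Ctla4 and at 2 in Tnfrsf18. The Havcr2 window held no NFAT core but 1 AP-1 site and 1 Runx core. A match is a run of letters and not a binding site. Of the 10 genes, 8 had a window in the reference used, and Lag3 and Icos did not.

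Several members are neighbors in the genome. Tnfrsf4 (chromosome 4, 156013595 to 156016613) and Tnfrsf18 (chromosome 4, 156026322 to 156028894) lie 9708 bases apart, and Ctla4 (chromosome 1, 60909025 to 60915832) lies 44940 bases from Icos (chromosome 1, 60960773 to 61000322). The other members are Pdcd1 (chromosome 1, 94038305 to 94052553), Lag3 (chromosome 6, 124904359 to 124912434), Tigit (chromosome 16, 43626137 to 43665125), Btla (chromosome 16, 45223705 to 45252895), Havcr2 (chromosome 11, 46454931 to 46481255) and Tnfrsf9 (chromosome 4, 150920155 to 150946104). Tnfrsf4 overlaps Sdf4 by 16 bases, Tnfrsf18 lies inside Gm16008, and the end of Tigit with the lower coordinates overlaps Zbtb20. No source used here says how the counting treated overlapping genes, so the UMIs of these 3 members are uncertain to that degree.

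The libraries held 9718 to 27210 barcodes and 21624506 to 88497833 UMIs. After quality filters 71143 of 86735 barcodes were retained, with a median depth per cell of 1204 to 6189 UMIs. A cell barcode had 24 bases in ERBB2i and combination, and 27 in the other 3 libraries. Differences between the 2 kinds of library cannot be told apart from treatment. Anti-PD-1 and combination in response shared 79 barcodes, 20 of them in T cells of both. ERBB2i and combination shared 782, vehicle and anti-PD-1 77, and vehicle and combination in response 69. None of these other pairs shared a T cell barcode.

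The Cd3 rule alone took in 26 cells in vehicle, 5294 in anti-PD-1, 2747 under ERBB2i, 937 in combination and 7243 under combination in response. Many of them carried more UMIs of a tumor list (16 neuroendocrine and epithelial genes) than of a pan-immune list (15 genes), namely 22, 890, 898, 490 and 11 cells in the same order. These cells, and cells with B cell or myeloid genes, were left out of the main values, and the calls between libraries without the tumor condition are given beside the main ones. There remained 4, 4300, 1793, 382 and 7111 T cells, of 7213, 11203, 22135, 22144 and 8448 retained cells. Vehicle therefore gave no T cell class of at least 20 cells, the minimum for a ratio. Combination in response held 1 tumor cell by the markers used below. Whether its T cells came from tumor tissue was not tested.

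T cells without Rag2 or Dntt, called Rag-negative here, numbered 1308 in anti-PD-1, 1783 under ERBB2i, 378 in combination and 1955 under combination in response, with median depths of 1040 to 1229 UMIs. All 10 genes of a T cell list, which includes the gate genes Cd3e, Cd3d and Cd3g, were detected in each of these 4 classes. Their summed level was 19635, 7793, 6288 and 16853 UMIs per 1000000 UMIs of the class (CPM) in the same order. The tumor list reached 248, 1341, 2340 and 18.9 CPM, and the NK list 675, 2388, 2379 and 480 CPM. The B cell list stayed at 15.2 to 28.1 CPM and the myeloid list at 10.5 to 238 CPM. The part of these other lists in the receptor values was not tested, apart from the levels in tumor cells given below.

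All 10 receptors were detected in the Rag-negative T cells of the 4 treated libraries. Pdcd1 reached 84.3 CPM in anti-PD-1 (95% interval 71.1 to 99.2), 141 under ERBB2i (127 to 156), 72.7 in combination (52.6 to 97.9) and 47.0 under combination in response (39.4 to 55.7). The ERBB2i level lay above the 3 libraries that received the antibody, with no overlap of the intervals. Intervals are exact Poisson limits and cover counting error only, since each group has no second library.

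Ctla4 was likewise highest in ERBB2i among the treated libraries. It reached 49.7 CPM in anti-PD-1 (39.7 to 61.5), 182 under ERBB2i (166 to 199), 110 in combination (84.8 to 140) and 36.1 under combination in response (29.5 to 43.8). Both 24-base libraries were above both treated 27-base libraries. Vehicle, which also has 27-base barcodes, is given below under a looser filter and did not follow this split for Ctla4. Tigit, a receptor for the poliovirus receptor CD155, had the same split, with 7.61, 32.7, 21.98 and 6.67 CPM in that order of libraries. Havcr2, which encodes TIM-3, had it too, with 0.585 CPM in anti-PD-1 from 1 UMI, 14.2 under ERBB2i, 10.1 in combination and 1.05 under combination in response from 3 UMIs.

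Lag3, whose product binds MHC class II, reached 26.9 CPM in anti-PD-1, 46.9 under ERBB2i, 28.7 in combination and 12.6 under combination in response. The intervals of anti-PD-1 (19.7 to 35.9) and combination (16.7 to 46.0) overlapped, and combination in response (8.85 to 17.5) was lowest. Btla, a receptor for the herpesvirus entry mediator, was the most even of the inhibitory genes, at 38.0, 44.2, 27.1 and 40.3 CPM, and its intervals overlapped in every pair of libraries.

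Among the co-stimulatory genes of the treated libraries, Tnfrsf4 stood out in anti-PD-1, although it was not called there against vehicle under the looser filter given below. It reached 274 CPM there (250 to 300), 87.7 under ERBB2i (76.7 to 99.9), 71.0 in combination (51.2 to 96.0) and 66.7 under combination in response (57.5 to 76.8). The other 3 libraries had overlapping intervals. Tnfrsf18 reached 188 CPM in anti-PD-1, 132 under ERBB2i, 156 in combination and 86.0 under combination in response, the last of them (75.5 to 97.4) below the other intervals. Icos was at 125, 142, 108 and 82.5 CPM and Tnfrsf9 at 83.1, 61.5, 86.2 and 60.7 CPM in the same order. For both genes the highest library was less than 2 times the lowest.

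**Figure D1:**
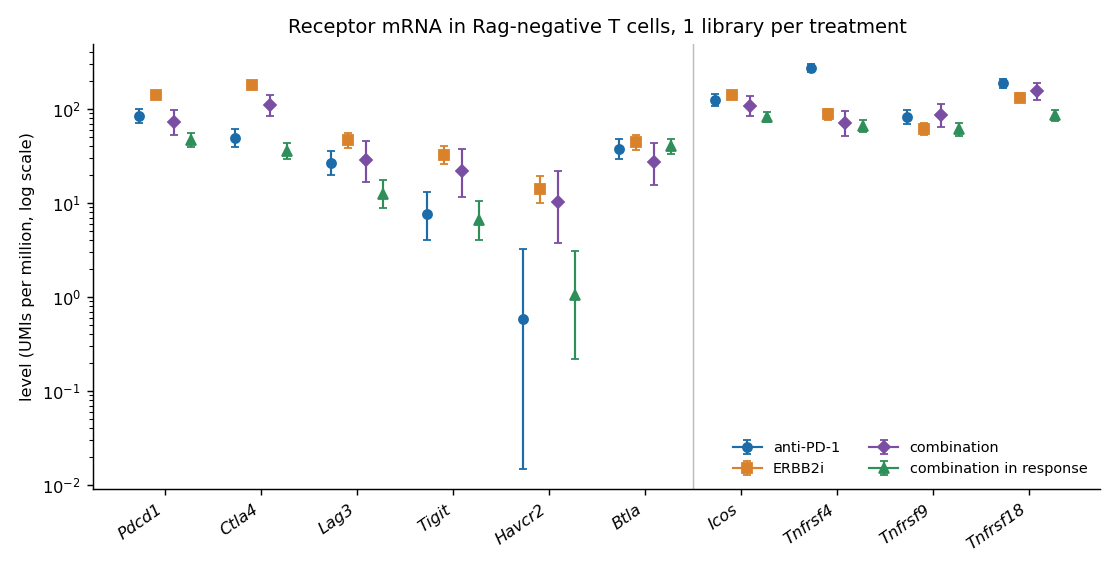
Level of each receptor in Rag-negative T cells, in CPM on a log scale, with 1 point per treated library and exact Poisson 95% intervals. Inhibitory receptors stand left of the vertical line and co-stimulatory ones right of it. Ctla4, Tigit and Havcr2 are higher in ERBB2i and combination than in the other treated libraries, and Tnfrsf4 is highest in anti-PD-1 at 274 CPM.

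Levels in tumor cells give the background that free RNA or misassigned reads could add. Combination in response held 1 tumor cell, so this background is not known there. In tumor cells with no Cd3 and no Ptprc UMI, Pdcd1 was at 0.0197 to 0.722 CPM over vehicle, anti-PD-1, ERBB2i and combination. Lag3 was at 7.17, 3.91, 12.3 and 5.79 CPM in the same order and Ctla4 at 3.15, 5.86, 2.50 and 2.14 CPM. The other 7 members stayed at or below 1.36 CPM. Lag3 was thus the member whose T cell level was nearest to that of tumor cells, 6.89 times as high in anti-PD-1, 3.81 times in ERBB2i and 4.97 times in combination. Zbtb20, which overlaps Tigit, was at 204 CPM in Rag-negative T cells of anti-PD-1, 539 under ERBB2i, 448 in combination and 415 under combination in response. Zbtb20 was also present in tumor cells, at 592 CPM in vehicle, 449 in anti-PD-1, 1285 under ERBB2i and 696 in combination, where Tigit was at 0 UMIs in vehicle and anti-PD-1 and at 0.186 and 0.0148 CPM under ERBB2i and combination.

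The combination and ERBB2i libraries share a barcode length and differ in the antibody. In Rag-negative T cells, none of the 10 members differed at least 2-fold with an interval of the log2 ratio that left out 0, the rule used for a call here, whereas 8.52% of 10958 genes tested did so in either direction. Pdcd1 came nearest, at a log2 ratio of -0.95 (interval -1.44 to -0.49), followed by Ctla4 at -0.73 (-1.12 to -0.35). Lag3 and Btla were both at -0.71 with intervals that included 0, and Tnfrsf9 was at 0.49 (0.00 to 0.95). The median over the members was -0.53, beside -0.05 over all genes tested. Without the tumor condition, 5 of the 10 were called, all lower in combination (Pdcd1, Ctla4, Lag3, Tigit and Icos), beside 16.5% of genes.

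In the Cd4-only cells of the same pair, 2 of 9 members were called, beside 7.5% of genes in either direction and 3.16% as lower. Pdcd1 was at 67.2 CPM in combination and 251 under ERBB2i, a log2 ratio of -1.90 (-3.55 to -0.63) from 5 and 97 UMIs. Lag3 was at 13.4 CPM from 1 UMI and 108 CPM from 42 UMIs, a log2 ratio of -3.01 (-8.35 to -0.46). Both lower levels rested on the 40 Cd4-only cells of combination. In Cd8a-only cells 0 of 8 members were called, beside 9.32% of genes, and Pdcd1 was at 79.0 and 87.6 CPM. In mature-marked cells, which carry genes of mature lymphocytes and no thymocyte genes, 0 of 10 were called, beside 8.77% of genes.

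Other genes of T cell activation were read in the same contrast. Of 14 further receptors tested 0 were called, and of 12 transcription factors of activation and exhaustion 3 were lower in combination. Nr4a2, an early response factor of T cell receptor signaling, was at 52.4 CPM in combination and 125 under ERBB2i. Eomes, a T-box factor of cytotoxic lymphocytes, was at 40.6 and 98.1 CPM, and Irf4 had 1 and 28 UMIs. Foxp3, which defines regulatory T cells, was higher in combination, with 9 UMIs against 14 under ERBB2i (15.2 and 5.39 CPM), the 1 call of 4 regulatory T cell genes tested, whose median log2 ratio was -0.13. In mature-marked cells 0 of 3 of these genes were called, with a median of -0.40, and in Cd4-only cells Ikzf2, which encodes the Ikaros family factor Helios, was lower in combination at -1.14.

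Anti-PD-1 alone and ERBB2i alone differed more widely. They also differ in barcode length, which cannot be told apart from treatment, so this pair is a description. In Rag-negative T cells, Tnfrsf4 was higher in anti-PD-1 and Ctla4, Tigit and Havcr2 were lower, 4 of 10 members. Of 11297 genes tested, 29.7% were called in either direction, 5.33% as higher and 24.4% as lower, a share not far from that of the members. Tnfrsf4 differed by a log2 ratio of 1.64 (1.41 to 1.88), 3.12-fold. Ctla4 differed by -1.87 (-2.22 to -1.54), Tigit by -2.10 (-3.07 to -1.25) and Havcr2 by -4.60 (-9.95 to -2.04), the last from 1 and 37 UMIs. Pdcd1 at -0.74 (-1.03 to -0.46) and Lag3 at -0.80 (-1.32 to -0.30) were lower by less than 2-fold. The members' median was -0.48 and that of all genes -0.30. The tumor and NK lists were lower in the anti-PD-1 cells, as given above, and their part in these ratios was not tested. Without the tumor condition, Pdcd1 and Lag3 were called lower as well, 6 of 10 members, beside 25.4% of genes.

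The contrast was also read in Cd4-only and Cd8a-only cells, and the difference between the 2 kinds of cell was not tested. In Cd4-only cells, Tnfrsf4 was at 545 CPM in anti-PD-1 and 220 under ERBB2i, and Ctla4 at 73.4 and 258 CPM, 2 calls of 9 members beside 21.7% of genes (6.27% as higher and 15.5% as lower). In Cd8a-only cells 4 of 8 members were called, all lower in anti-PD-1, beside 26.5% of genes in either direction and 19.5% as lower. Pdcd1 was at 37.0 and 87.6 CPM there, Ctla4 at 29.6 and 113 CPM, and Lag3 at 9.86 and 37.8 CPM. Tigit had 0 UMIs in anti-PD-1, which allows up to 7.39 CPM, and 24 UMIs (36.2 CPM) under ERBB2i, 4.90-fold above that limit. The intervals of the log2 ratios overlapped between Cd4-only and Cd8a-only cells for Pdcd1 (-0.91 and -1.24), Ctla4 (-1.82 and -1.94) and Lag3 (-0.85 and -1.94). Tnfrsf4 had 15 and 4 UMIs in Cd8a-only cells, under the minimum for a call.

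Among other genes of this contrast, Tcf7 and Cd27 were higher in anti-PD-1. Tcf7, a factor of naive and memory T cells, was at 1227 CPM in anti-PD-1 and 508 under ERBB2i, and the co-stimulatory receptor gene Cd27 at 730 and 229 CPM. Of 12 transcription factors, 6 were lower in anti-PD-1, among them Eomes at 8.78 and 98.1 CPM, Tbx21, the T-bet gene of type 1 responses, at 8.78 and 46.9 CPM, and Nr4a2 at 16.97 and 125 CPM. Of 15 other receptors tested, Tnfrsf1b, Klrg1 and Cd101 were lower. Foxp3 was at 15.8 and 5.39 CPM, and Gpr83, a gene of regulatory T cells, had 39 and 1 UMIs. Both were higher in anti-PD-1, of 5 such genes tested. The anti-PD-1 cells held more thymocyte RNA, 195 CPM of the thymocyte list against 7.31. In mature-marked cells, which hold none, Cd27 was still called higher and Tcf7 was not, and of the lower genes Batf, Id2, Tnfrsf1b and Klrg1 were no longer called. The regulatory genes called higher there were 4 of 5, Foxp3, Il2ra, Ikzf4 and Gpr83.

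The response library was set beside anti-PD-1, which has the same barcode length and also holds many Rag-positive T cells. In Rag-negative T cells 3 of 9 members tested were called, all lower in combination in response, beside 25.7% of 10159 genes in either direction and 9.16% as lower. Tnfrsf4 differed by -2.04 (-2.29 to -1.79), 4.11-fold, Tnfrsf18 by -1.13 (-1.38 to -0.89) and Lag3 by -1.09 (-1.76 to -0.43). Pdcd1 was lower by less than 2-fold at -0.84 (-1.19 to -0.49), and Btla was at 0.09 (-0.37 to 0.55). The members' median was -0.60 while that of all genes was 0.22. Without the 79 barcodes that both libraries hold, the same 3 members were called. Without the tumor condition, none of the 3 remained called. Tnfrsf4 was then at -0.61 and Lag3 and Tnfrsf18 turned to 0.09 and 0.28, while 2 members, Tigit and Btla, were called higher in combination in response, beside 50.7% of genes.

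The same pair of libraries was read in Cd4-only and Cd8a-only cells, and the difference between these was not tested. In Cd4-only cells, Pdcd1 was at 36.5 CPM in combination in response and 134 in anti-PD-1, and Tnfrsf4 at 137 and 545 CPM. Ctla4, Lag3 and Tnfrsf18 were called as well, 5 of 8 members, beside 25.6% of genes in either direction and 7.91% as lower. In Cd8a-only cells 1 of 7 was called, beside 25.2% of genes (7.06% as lower). That member was Tnfrsf4, at 9.33 CPM from 7 UMIs and 37.0 CPM from 15, whereas Pdcd1 was at 42.7 and 37.0 CPM.

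Rag-negative T cells of these 2 libraries still held RNA of the thymocyte genes Ptcra and Arpp21, 195 CPM of the 5-gene list in anti-PD-1 and 863 CPM under combination in response, against 7.31 under ERBB2i and 8.46 in combination. Comparisons were therefore repeated in mature-marked cells, which have a UMI of a 6-gene list of mature lymphocytes (Klf2, S1pr1, Il7r, Ccl5, Nkg7, Ccr7) and none of the 5 thymocyte genes. They numbered 577, 1694, 360 and 557 in anti-PD-1, ERBB2i, combination and combination in response. There Tnfrsf4 at -1.46 and Lag3 at -1.15 were still called for combination in response against anti-PD-1, beside 15.5% of genes in either direction and 5.47% as lower, and Tnfrsf18 at -0.77 was not. For anti-PD-1 against ERBB2i the same 4 members were called as in all Rag-negative cells, beside 30.4% of genes (4.16% as higher and 26.3% as lower).

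Among other genes of the same contrast, Nr4a1, Tox and Nr4a2 were higher in combination in response. Nr4a1, an immediate target of T cell receptor signaling, was at 579 CPM in combination in response and 149 in anti-PD-1, Tox, a factor of thymocyte development and of exhaustion, at 1046 and 355 CPM, and Nr4a2 at 56.8 and 16.97 CPM. Tox2 and Batf were lower, 5 calls of 11 factors in all. Of 14 other receptors, Cd28, the main co-stimulatory receptor, was at 688 and 328 CPM and Cd200r1 was also higher, and Cd101 was lower. Of 5 regulatory T cell genes tested, Foxp3 was lower in combination in response, at 3.51 and 15.8 CPM, and Ikzf2 was higher, at 307 and 121 CPM. In mature-marked cells Foxp3 and Il2ra were lower and Ikzf2 was not called.

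The 2 combination libraries differ in barcode length, so this pair is a description. Ctla4, Lag3 and Tigit were lower in combination in response than in combination, 3 of 9 members, beside 29.6% of genes in either direction and 15.7% as lower. The log2 ratios were -1.60 (-2.07 to -1.13), -1.19 (-2.06 to -0.26) and -1.72 (-2.82 to -0.58). In mature-marked cells Lag3 alone was called, at -1.30, beside 25.3% of genes (16.3% as lower). Without the tumor condition none of the 3 calls remained, and 4 members, Icos, Tnfrsf4, Tnfrsf9 and Btla, were called higher in combination in response, beside 48.7% of genes.

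Immature T cells carried little receptor RNA, with exceptions in the response library. T cells with Rag2 or Dntt, called Rag-positive here, numbered 2992 in anti-PD-1 and 5156 under combination in response, and 0 to 10 in the other libraries. They made up 69.6% and 72.5% of the T cells of these 2 libraries. Their thymocyte list reached 2172 and 3715 CPM, a value raised by the gate itself, since Rag2 and Dntt are on that list. Their mature list, which holds no gate gene, reached 66.0 and 276 CPM, against 2127 and 2040 CPM in Rag-negative cells. Rag1 had no UMI in any library.

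In anti-PD-1, Pdcd1 was at 9.76 CPM in Rag-positive cells and 84.3 in Rag-negative cells, and Tnfrsf4 at 4.78 and 274 CPM. All 8 members tested were lower in Rag-positive cells, beside 22.1% of 11364 genes in either direction and 15.6% as lower. The log2 ratios ran from -1.72 for Ctla4 (-2.12 to -1.32) to -5.84 for Tnfrsf4 (-6.31 to -5.40), with a median of -3.75 beside -0.12 over all genes. Tigit and Havcr2 had 1 UMI each in Rag-positive cells and were too rare for a ratio. Against mature-marked cells the same 8 members were lower, beside 23.5% of genes in either direction and 13.3% as lower. Without the tumor condition, 7 of 8 were called, Ctla4 not among them, beside 33.2% of genes.

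In combination in response, 7 of 9 members were lower in Rag-positive cells, beside 13.7% of 11353 genes in either direction and 6.53% as lower. Tnfrsf4 was at 5.96 and 66.7 CPM, a log2 ratio of -3.48 (-3.94 to -3.04), Tigit at 0.650 and 6.67 CPM, and Pdcd1 at 10.7 and 47.0 CPM. The members' median was -2.25 beside 0.03 over all genes. Lag3 and Ctla4 were the exceptions. Lag3 was at 15.6 CPM in Rag-positive and 12.6 in Rag-negative cells (log2 ratio 0.31, -0.23 to 0.87), and Ctla4 at 27.2 and 36.1 CPM (-0.41, -0.75 to -0.06). Against mature-marked cells, Ctla4 was called lower at -1.08 and Lag3 was at 0.38, and 7 of 8 members were lower in all, beside 22.4% of genes (8.25% as lower).

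Set side by side, the Rag-positive cells of the 2 libraries differed in Lag3, which was at 2.60 CPM in anti-PD-1 (1.68 to 3.83) and at 15.6 in combination in response (13.2 to 18.4). Icos at 7.06 and 17.3 CPM and Tnfrsf9 at 3.43 and 11.3 CPM were also lower in the Rag-positive cells of anti-PD-1. The share of all genes that differed in this pair was not computed, so these are levels and not calls. Not every member is compared here. Pdcd1 at 9.76 (7.88 to 11.9) and 10.7 (8.72 to 13.1) CPM had overlapping intervals in the 2 libraries. The 2.60 CPM of Lag3 in anti-PD-1 lay below the 3.91 CPM of its tumor cells, and combination in response held 1 tumor cell, too few for such a reference. Rag-positive cells were deeper in anti-PD-1, at a median of 2402 UMIs, than in combination in response, at 1285. They held 1328 Cd8a-only cells and 1035 with both Cd4 and Cd8a in anti-PD-1, and 1412 and 2674 in combination in response. The part of this make-up in the differences was not tested.

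Other receptors and factors were lower in Rag-positive cells too, 11 of 14 receptors and 8 of 9 transcription factors tested in anti-PD-1 and 8 of 14 and 9 of 11 in combination in response. Cd40lg, the CD40 ligand of helper T cells, was at 0.623 and 46.2 CPM in Rag-positive and Rag-negative cells of anti-PD-1, and Id2 at 15.3 and 281 CPM. Il2ra, the gene of the high-affinity interleukin 2 receptor chain, went the other way in combination in response, at 131 CPM in Rag-positive and 23.5 in Rag-negative cells, while the other 3 of 4 regulatory genes tested were lower.

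**Figure D2:**
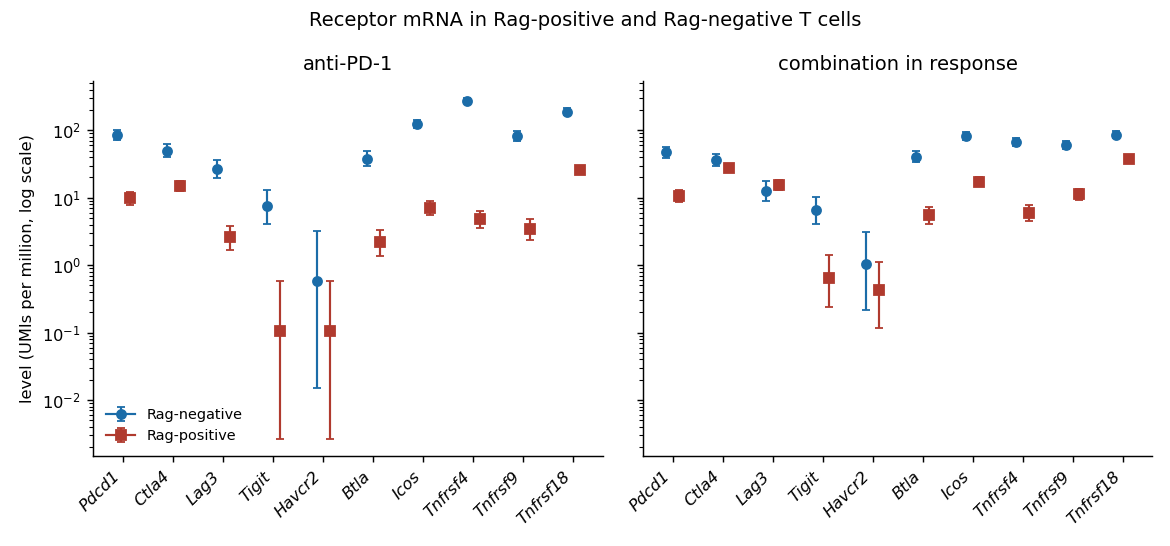
Level of each receptor in Rag-positive and Rag-negative T cells of the 2 libraries that hold both, in CPM on a log scale with exact Poisson 95% intervals. Rag-negative cells are higher for every member tested in anti-PD-1, while Lag3 in combination in response is at 15.6 CPM in Rag-positive and 12.6 in Rag-negative cells.

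Tnfrsf4, Icos and Tnfrsf18 were higher per UMI in Cd4-only than in Cd8a-only cells of all 4 treated libraries. Rag-negative cells with Cd4 and no Cd8a UMI numbered 267 in anti-PD-1, 237 under ERBB2i, 40 in combination and 409 under combination in response, and cells with Cd8a and no Cd4 UMI 299, 382, 108 and 493. Tnfrsf4 was at 545, 220, 242 and 137 CPM in Cd4-only cells and at 37.0, 6.04, 9.29 and 9.33 CPM in Cd8a-only cells. The log2 ratios were 3.88 (3.13 to 4.75), 5.18 (3.77 to 7.09), 4.70 (2.64 to 7.85) and 3.87 (2.77 to 5.23), so Tnfrsf4 was higher in Cd4-only cells of all 4 libraries. The Cd8a-only levels rested on 15, 4, 2 and 7 UMIs. Sdf4, which overlaps Tnfrsf4, was at 427, 421, 242 and 257 CPM in Cd4-only and 222, 125, 139 and 172 CPM in Cd8a-only cells, and its part in the Tnfrsf4 counts was not tested.

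Icos and Tnfrsf18 showed the same direction in all 4 libraries. Icos was at 186, 227, 161 and 126 CPM in Cd4-only cells and 64.1, 61.9, 65.0 and 49.3 CPM in Cd8a-only cells, and its log2 ratios ran from 1.31 to 1.88. Tnfrsf18 was at 278, 235, 201 and 134 CPM and at 83.8, 113, 69.7 and 53.3 CPM, with log2 ratios from 1.05 to 1.73. These 3 genes and no other were called in combination, of 6 members tested, beside 6.29% of genes (3.24% as higher), and in combination in response, of 8, beside 5.38% (2.49% as higher). With at least 2 Cd3 UMIs required, 4 members were tested in combination and 0 were called. Under ERBB2i, Tnfrsf18 was not called with cells kept on over 150 detected genes only. It was also not called there with the Rag split on 5 thymocyte genes or with scaling by the median of gene ratios. In combination, Tnfrsf18 was not called with over 150 detected genes only, and Icos was not called with the Rag split on 5 genes.

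Under the main settings, calls of inhibitory genes in this split were made in anti-PD-1 and ERBB2i. There Pdcd1, Ctla4 and Lag3 were also higher in Cd4-only cells, which made 6 of 8 members in anti-PD-1, beside 8.12% of genes (4.30% as higher), and 6 of 9 under ERBB2i, beside 5.64% (2.70% as higher). Pdcd1 was at 134 CPM in Cd4-only and 37.0 in Cd8a-only cells of anti-PD-1 and at 251 and 87.6 CPM under ERBB2i. In combination it was at 67.2 and 79.0 CPM and in combination in response at 36.5 and 42.7 CPM, a log2 ratio of -0.23 in both, with intervals of -2.03 to 1.26 and -1.05 to 0.58. The intervals of Pdcd1 did not overlap between anti-PD-1 (1.00 to 2.79) and combination in response. Ctla4 was at 148 and 97.5 CPM in combination (log2 ratio 0.60, -0.60 to 1.72) and at 31.9 and 37.3 CPM in combination in response (-0.23, -1.12 to 0.64). Lag3 was at 21.3 and 13.3 CPM in combination in response (0.67, -0.60 to 2.01), and its 1 and 14 UMIs in combination were too few for a ratio. With cells kept on over 150 detected genes only, Lag3 and Btla were called in combination and Btla in combination in response, beside 7.11% and 5.21% of genes. Of the 4 calls then made in combination, 3 were higher and 1 was lower in Cd4-only cells.

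Tnfrsf9 was near even between the 2 kinds of cell, at 128 and 76.4 CPM in anti-PD-1, 82.7 and 45.3 under ERBB2i, 121 and 79.0 in combination and 82.1 and 61.3 under combination in response. It was not called in any of them, and its log2 ratios ran from 0.42 to 0.87. Havcr2 had 0 UMIs in Cd4-only cells of anti-PD-1, combination and combination in response, which allows 7.86, 40.3 and 4.56 CPM, and was at 20.7 CPM under ERBB2i. In Cd8a-only cells it had 0 UMIs in anti-PD-1 and was at 15.1, 23.2 and 4.00 CPM in the others.

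Of other receptors, Cd40lg was higher in Cd4-only cells of anti-PD-1 (113 and 4.93 CPM) and of ERBB2i (33 UMIs and 0). Cd160, a receptor of cytotoxic cells, was lower in Cd4-only cells of all 4 libraries, at 18.3 and 49.3 CPM in anti-PD-1 and at 10.3 and 52.9 CPM under ERBB2i. Foxp3 was detected in 5, 3, 1 and 1 Cd4-only cells, too few to describe regulatory T cells apart from the rest.

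Among Rag-positive cells the order was similar where it could be read. Tnfrsf4 was at 55.8 CPM in Cd4-only and 2.20 in Cd8a-only cells of anti-PD-1 and at 13.7 and 2.31 CPM under combination in response. Tnfrsf18 was at 91.6 and 20.2 CPM and at 56.5 and 33.6 CPM. The Cd4-only Rag-positive classes held 169 and 515 cells. Rag-negative cells with both Cd4 and Cd8a, 120 in anti-PD-1 and 357 under combination in response, had a summed level of the 10 members of 267 and 262 CPM, below the 1460 and 611 CPM of Cd4-only and the 355 and 304 CPM of Cd8a-only cells. Rag-negative cells with neither Cd4 nor Cd8a detected, the most numerous class, had a summed level of 987 CPM in anti-PD-1, 877 under ERBB2i, 729 in combination and 507 under combination in response.

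**Figure D3:**
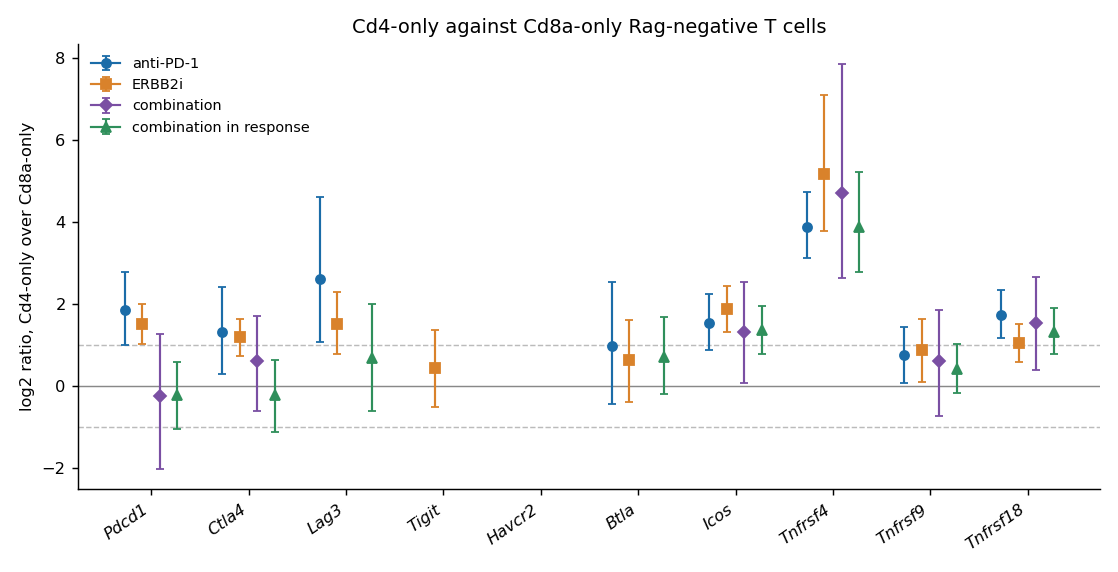
Log2 ratio of each receptor between Cd4-only and Cd8a-only Rag-negative T cells, with exact 95% intervals and 1 point per library. Members with under 20 UMIs over both classes have no point, and dashed lines mark 2-fold. Tnfrsf4 lies at 3.87 to 5.18 in all 4 libraries, and Pdcd1 is positive in anti-PD-1 and ERBB2i and at -0.23 in both combination libraries.

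NK cells differed from T cells in which receptor they carried. In ERBB2i, 201 NK cells held 45 UMIs of Tnfrsf18, 165 CPM (121 to 221), and 17 of Tnfrsf9, 62.5 CPM (36.4 to 100.02). Rag-negative T cells of the library had 132 and 61.5 CPM, and the log2 ratios of 0.33 (-0.16 to 0.78) and 0.02 (-0.79 to 0.75) both had intervals that included 0. The NK list, which includes the gate genes Ncr1, Klrb1c and Klre1, was detected in full in these cells, at 17463 CPM.

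The other members were low or absent in NK cells. Pdcd1 and Ctla4 had 4 UMIs each (14.7 CPM), Lag3 had 5 (18.4 CPM) and Tigit and Icos 3 each (11.0 CPM). Havcr2, Btla and Tnfrsf4 had 0, which allows up to 11.0 CPM. Against Rag-negative T cells 6 of 10 members were lower, beside 7.95% of 10685 genes in either direction and 3.95% as lower. The log2 ratios were -3.26 for Pdcd1 (-5.14 to -1.89), -3.63 for Ctla4 (-5.51 to -2.26), -3.69 for Icos (-5.97 to -2.13) and -1.35 for Lag3 (-3.001 to -0.09). Read at the limit for 0 UMIs, Tnfrsf4 was 7.96-fold lower and Btla 4.01-fold lower.

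Of 15 other receptors tested in ERBB2i, 4 were higher and 5 lower in NK cells than in T cells, with a median log2 ratio of -0.71. Klrg1, an inhibitory receptor of mature NK cells, was at 198 and 12.3 CPM, Cd244a, the 2B4 receptor gene, at 158 and 4.62 CPM, and Cd160 at 107 and 37.7 CPM, and Lair1 was higher too. Cd28, Cd40lg, Cd96, Tnfrsf25 and Slamf6 were lower. Of 12 transcription factors 3 were higher and 3 lower. Tbx21 at 254 and 46.9 CPM and Eomes at 228 and 98.1 CPM, both factors of NK cell development, were higher, with Id2, and Eomes is also a gene of the NK list. Nr4a2, Tcf7 and Batf were lower. In combination 35 NK cells held 5 UMIs of Tnfrsf18 (92.7 CPM) and 2 of Tnfrsf9 (37.1 CPM), and 0 UMIs of 6 members, each allowing up to 55.6 CPM. The other libraries had 1 to 3 NK cells.

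B cells served as a further reference for Btla, which is known from that lineage. With at least 2 UMIs of B cell genes and no Cd3 UMI, B cells had Btla at 99.5 CPM in anti-PD-1, 285 under ERBB2i, 215 in combination and 187 under combination in response, above T cells of each library. Cd3 cells with B cell genes had been left out, and the B list in Rag-negative T cells was at 15.2 to 28.1 CPM. Pdcd1 in B cells had at most 1 UMI per library.

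**Figure D4:**
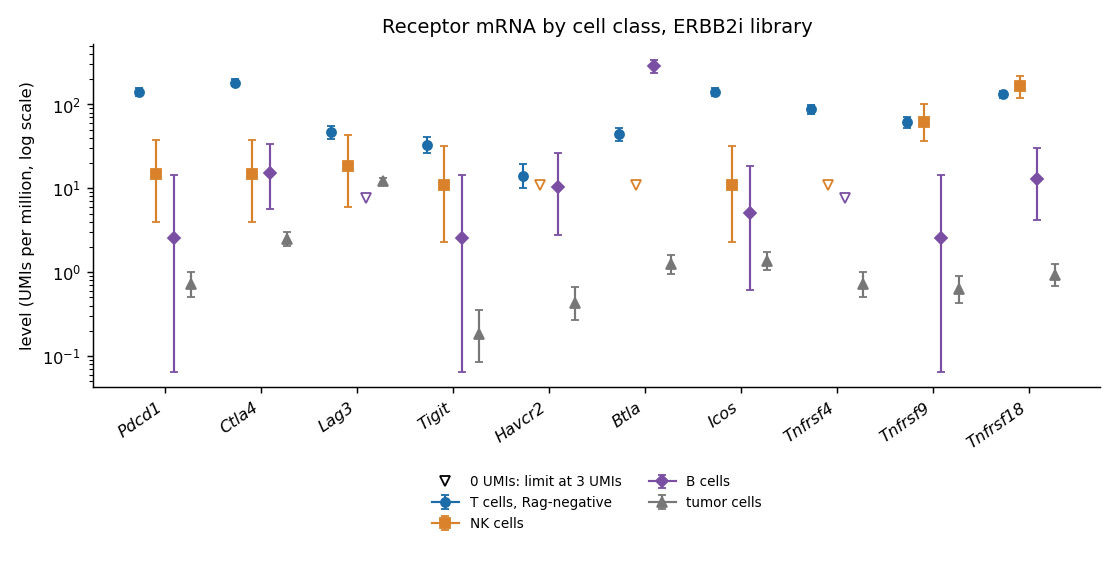
Level of each receptor in Rag-negative T cells, NK cells, B cells and tumor cells of the ERBB2i library, in CPM on a log scale with exact Poisson 95% intervals. Open triangles mark the limit that 3 UMIs allow where none was found. Tnfrsf18 and Tnfrsf9 have NK cell levels of 165 and 62.5 CPM beside 132 and 61.5 in T cells, and Btla is highest in B cells at 285 CPM.

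More than 1 receptor per cell was found in a larger share of Cd4-only than of Cd8a-only cells in each treated library, with overlapping intervals in both combination libraries. To compare cells at 1 depth, each was thinned to 500 UMIs, and shares were averaged over all possible draws. At that depth 2 or more of the 10 members were detected in 5.29% of Rag-negative T cells of anti-PD-1 (4.14 to 6.64), 6.82% under ERBB2i (5.70 to 8.09), 5.69% in combination (3.58 to 8.53) and 1.72% under combination in response (1.19 to 2.40). The response library lay below the other 3 without overlap. Its share was 3.86% (2.42 to 5.81) in mature-marked cells, whose interval overlapped those of the other libraries. Unthinned, the shares were 13.6%, 18.5%, 15.9% and 7.98%. No cell of these classes held under 500 UMIs, so thinning left none out.

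At least 1 member was found in 23.5%, 28.6%, 26.0% and 12.2% of thinned Rag-negative T cells, and in 0.609% to 1.10% of thinned tumor cells, which should lack the receptors. Unthinned, these shares were 36.9%, 48.5%, 44.7% and 25.6% in T cells and 3.83% to 7.24% in tumor cells, whose median depth was 2623 to 6223 UMIs. Up to 7, 8, 6 and 6 members were seen in a single unthinned cell. In Cd4-only cells 2 or more were found in 9.80%, 14.4%, 8.90% and 3.11%, and in Cd8a-only cells in 1.52%, 2.84%, 3.57% and 1.00%. The intervals of the 2 kinds of cell did not overlap in anti-PD-1 (6.52 to 14.0 and 0.459 to 3.64) or in ERBB2i (10.2 to 19.5 and 1.42 to 5.04). Rag-positive cells had 0.286% and 0.235% in anti-PD-1 and combination in response, NK cells 0.804% under ERBB2i, and tumor cells at most 0.00857%. Unthinned, the shares were 26.2%, 36.3%, 22.5% and 14.2% in Cd4-only cells, 6.02%, 14.1%, 16.7% and 6.49% in Cd8a-only cells, 1.80% in both Rag-positive classes and 3.98% in NK cells.

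**Figure D5:**
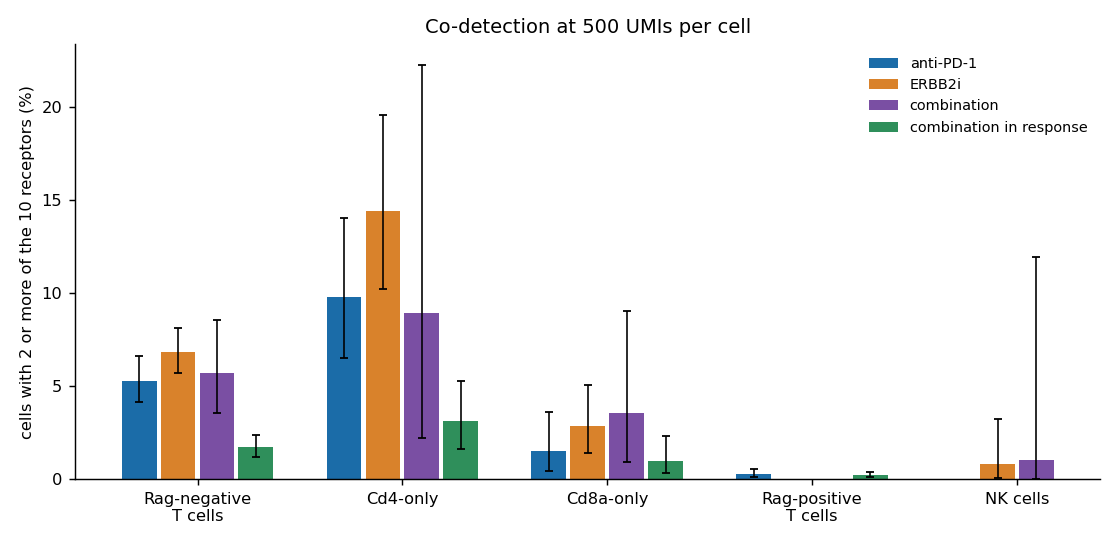
Share of cells with 2 or more of the 10 receptors detected after thinning to 500 UMIs, in percent, by class of cell and library, with exact binomial 95% intervals that cover counting error only. Cd4-only cells have the highest bars, 14.4% under ERBB2i, and combination in response has the lowest share among Rag-negative T cells at 1.72%.

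Of the 45 possible pairs, 44 were seen in at least 1 unthinned Rag-negative T cell, and Havcr2 with Btla was not. The 5 most frequent were Tnfrsf4 with Tnfrsf18 in 145 cells, Icos with Tnfrsf18 in 120, Ctla4 with Icos in 116, Ctla4 with Tnfrsf18 in 106 and Pdcd1 with Icos in 96. Tnfrsf18 was detected in 27.3% of thinned cells with Tnfrsf4 in anti-PD-1 (18.4 to 37.9) and in 6.27% of those without. The same shares were 16.9% and 5.63% under ERBB2i, 30.4% and 7.67% in combination and 22.5% and 2.51% under combination in response. Unthinned, they were 44.6% and 11.2% in anti-PD-1, 36.7% and 12.6% under ERBB2i, 45.8% and 15.0% in combination and 44.9% and 5.91% in combination in response. The share with Tnfrsf4 was higher in each library, and the intervals did not overlap in anti-PD-1, ERBB2i or combination in response. Both genes were also higher in Cd4-only than in Cd8a-only cells. Within Cd4-only cells the shares were 23.4% (10.7 to 40.8) and 8.55% (5.29 to 12.9) in anti-PD-1, with overlapping intervals.

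Icos was detected in 14.1% of thinned cells with Pdcd1 under ERBB2i (8.14 to 22.1) and in 5.97% of those without (4.88 to 7.21). With Ctla4 it was detected in 12.1% (7.32 to 18.6) and without in 5.95% (4.86 to 7.21). In the other libraries the intervals of both pairs overlapped, as they rested on 14.7 to 37.5 thinned cells with Pdcd1 or Ctla4.

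Over 16 non-overlapping classes of at least 50 cells, the summed members ranged from 70.6 CPM in Rag-positive cells of anti-PD-1 to 1498 CPM in Cd4-only cells of ERBB2i. The genes with the most similar profile, of 9260 compared, were Slfn2 (Pearson r = 0.96), Igfbp4 (0.95), Capg (0.93), Samhd1 (0.92) and Inpp1 (0.91). The classes share libraries and depth, so these coefficients are a description.

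Vehicle could be described only without the mitochondrial and median-based filters, which left 86 Rag-negative T cells with 170243 UMIs. Ctla4 was at 235 CPM there from 40 UMIs, Tnfrsf18 at 194 from 33, Tnfrsf4 at 182 from 31, Icos at 159 from 27 and Pdcd1 at 117 from 20. Lag3, Tigit, Havcr2, Tnfrsf9 and Btla had 2 to 9 UMIs. Set against vehicle with the same looser filter, 1 of 10 members was called in ERBB2i, beside 9.76% of genes (2.53% as lower), and 2 of 10 in combination, beside 11.5% (3.50% as lower). Tnfrsf4 was lower in both, at log2 ratios of -1.10 (-1.64 to -0.51) and -1.38 (-1.99 to -0.74), and Ctla4 was lower in combination at -1.20 (-1.73 to -0.65). ERBB2i and combination differ from vehicle in barcode length, which cannot be told apart from treatment, whereas anti-PD-1 and combination in response share that of vehicle.

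Against vehicle, anti-PD-1 had 3 of 9 members called, beside 15.6% of genes (8.49% as higher and 7.07% as lower). Ctla4 at -2.35 and Tigit at -2.93 were lower, Tnfrsf9 at 1.21 was higher, and Tnfrsf4 was not called. Combination in response had 6 of 9, beside 20.4% of genes (13.8% as higher and 6.54% as lower). Ctla4 at -2.53, Tigit at -2.73, Tnfrsf4 at -1.58, Tnfrsf18 at -1.27 and Pdcd1 at -1.24 were lower, and Btla at 1.97 was higher from 2 UMIs in vehicle. Under the full filters 4 such vehicle cells remained, and the 4 contrasts share the vehicle cells.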

How the data were processed

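Single-cell RNA sequencing libraries from 5 tumor samples, 1 per group, were used as deposited by the authors, as matrices of raw UMI counts per gene and barcode. Per the labels, cells were captured on a SCOPE-chip (Singleron). The submitters' processing notes name mm10, Cell Ranger and Scanpy, with no versions, and the study's methods name CeleScope for the matrices.

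Barcodes with more than 150 genes, at most 8% mitochondrial UMIs and within 3 (mitochondrial share) or 5 (depth, genes, share of the top 20 genes) median absolute deviations (MAD) were kept. Doublets were removed with Scrublet in scanpy 1.11.5, at a fixed score of 0.25 where the automatic threshold marked under 0.5% of cells. Of 73349 barcodes that passed, 2206 were removed as doublets.

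T cells had at least 1 Cd3e, Cd3d or Cd3g UMI, more pan-immune than tumor list UMIs, under 2 B list and under 3 myeloid list UMIs. The tumor, B and myeloid conditions were added to the Cd3 and NK rules, and values without the tumor condition ("no lineage condition") are given in the closing section.

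Counts were summed over the cells of a class and given as CPM with exact Poisson 95% intervals. Ratios have exact conditional intervals, tested for genes with at least 20 UMIs over both sums in classes of at least 20 cells. A gene was called where it differed at least 2-fold and the interval of the log2 ratio excluded 0. A sum of 0 was read as a limit of 3 counts. No p-values were computed, as cells are not replicates. The interval and call were tested on simulated data. Shares of cells were computed after thinning to 500 UMIs with exact binomial (Clopper-Pearson) intervals. A single random draw was run first and was replaced, after seeing the data, by the average over all draws, since the draw for combination in response lay apart from that average. Also chosen after seeing the data were the vehicle values without the mitochondrial and MAD filters, the pair of combination in response and combination, and the values without shared barcodes.

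Genes were named as follows: all 10 members throughout, and from the lists of other receptors (16 genes), transcription factors (12) and regulatory T cell genes (6) those called, with examples given. The 5 genes with the profile most like the summed members were compared on log2(CPM + 1) over classes of at least 50 cells. The members and lists were chosen with earlier results of these data known. Python 3.11.15, numpy 2.4.6, scipy 1.17.1, pandas 2.3.3 and matplotlib 3.10.9 were used.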

Additional observations from a re-analysis of the deposited data

How the results depend on the processing

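Of 115 counts of members called under an alternative, 108 stayed within 1.5 times the main count. In 2 of these 108, both with no lineage condition, all called members and their direction changed: combination in response against anti-PD-1 went from 3 lower to 2 higher (Tigit, Btla), and against combination from 3 lower to 4 higher (Icos, Tnfrsf4, Tnfrsf9, Btla). Also among the 108, Cd4-only against Cd8a-only cells of combination went from 3 higher to 3 higher and 1 lower with over 150 detected genes only (Lag3, Icos, Tnfrsf4, Btla). Combination against ERBB2i (0 called) went to 5 with no lineage condition (Pdcd1, Ctla4, Lag3, Tigit and Icos), and to 1 with at least 2 Cd3 UMIs, with scaling by the median of gene ratios, and with the mean over cells. Combination in response against combination (3) went to 1 in mature-marked cells and 5 with the mean over cells. Cd4-only against Cd8a-only cells of combination (3) went to 0 with at least 2 Cd3 UMIs. Of 596 log2 ratios of single members, 556 kept their side of the call, 14 lost a call and 19 gained one. The other 7 were called under the main setting, the alternative or both, and changed sign. Changes of sign in ratios called under neither setting were not counted. All 7 changed sign with no lineage condition, to 0.094 for Lag3, 1.25 for Tigit and 0.28 for Tnfrsf18 in combination in response against anti-PD-1, and to 0.080 for Tigit, 1.23 for Icos, 1.43 for Tnfrsf4 and 1.27 for Tnfrsf9 against combination. The cause was not tested.

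The share of Rag-negative T cells with 2 or more members moved with depth, to 13.6%, 18.5%, 15.9% and 7.98% unthinned and 13.9%, 13.2%, 11.6% and 5.87% thinned to 1000 UMIs, where 699, 1135, 247 and 1293 cells were deep enough (anti-PD-1, ERBB2i, combination, combination in response). With no lineage condition it was 3.30%, 4.81% and 2.89% in the first 3. In combination in response it was 2.48% with the split on 5 thymocyte genes and 3.86% in mature-marked cells. No replicate could be left out and no paired analysis was possible because each group had 1 library. Depth limits the 40 Cd4-only cells and 35 NK cells of combination, where 1 UMI can decide a value.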
